A study of Mus musculus with 4 samples.

Results

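The nuclear genes of oxidative phosphorylation were followed through 4 libraries of ribosome-bound RNA from the deep cerebellar nuclei of adult mice. Members were chosen by gene symbol alone: all names of complex I (Nduf), complex II (Sdh), complex III (Uqcr and Cyc1), cytochrome c (Cycs and Cyct), complex IV (the Cox4 to Cox8 subunits, with Ndufa4 and Ndufa4l2 placed there) and ATP synthase (Atp5). This gave 88 members among 32531 gene names, of which 36 belonged to complex I, 4 to complex II, 9 to complex III, 2 to cytochrome c, 20 to complex IV and 15 to ATP synthase, called complex V below. Atp5s and Atp5sl carry the family name without being subunits and were kept as 2 other members. Each library came from an untreated pool of 3 mice of the line Slc17a6-TRAP JX883, in which a ribosomal protein fused to EGFP (EGFP/Rpl10a) is carried by a transgene named for Slc17a6, the vesicular glutamate transporter gene of many glutamatergic neurons of the brainstem and deep nuclei. In this method, translating ribosome affinity purification (TRAP), tagged polysomes are pulled from a tissue homogenate with antibodies to EGFP and the bound RNA is sequenced. The 4 libraries form 1 group (replicates 1 to 4), in which the library number of replicate 4 is far from the consecutive numbers of the other 3. No whole-tissue RNA and no second line is analysed here, so no enrichment in the tagged cells can be given. The labels do not say how the pools relate to each other, so every p-value below measures only the spread between these 4 libraries.

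Oxidative phosphorylation makes most of the ATP of a neuron. Complexes I and II pass electrons to ubiquinone, complex III passes them to cytochrome c and complex IV to oxygen, and complexes I, III and IV pump the protons that drive ATP synthase. Several complex IV subunits, cytochrome c and the membrane c-subunit of ATP synthase are encoded by more than 1 nuclear gene, with copies known from heart and muscle, lung or testis. The mitochondrial genome encodes the remaining subunits, and 0 of its 13 protein-coding genes are named in the count files, so those partners were not analysed here.

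The promoters of the members give a first view of what the group shares beyond its names. A RefSeq promoter (assembly GRCm38.p6, from 250 bases before the start to 50 bases after it) was matched by symbol for 70 of the 88 members. The letters GCGC, then A, then any base, then GCGC, searched on both strands and with overlapping matches counted, are the core of the site known for nuclear respiratory factor 1 and stood in 17 of these 70 promoters (24.3%). The same letters stood in 4.6% of all 32851 promoters of that length and in 9.98% of the 10971 promoters of genes that had 10 or more counts in all 4 libraries. By complex the carriers were 7 of 32 matched for complex I, 2 of 3 for complex II, 1 of 5 for complex III, 1 of 14 for complex IV, 6 of 13 for ATP synthase and 0 of 2 for cytochrome c. Sdha and Ndufb4 each held 3 matches and Cox6a1 and Uqcrc1 each held 2. The 120 bases before the RefSeq start are shown for 4 carriers from 4 complexes, 5′ to 3′ on the gene's own strand, with the matches in capitals: Sdha (chr13:74350241.0-74350360.0, minus strand), Ndufb4 (chr16:37654369.0-37654488.0, minus strand), Cox6a1 (chr5:115348959.0-115349078.0, minus strand) and Atp5c1 (chr2:10080433.0-10080552.0, minus strand). They show how differently the same letters are placed. Sdha holds 3 copies spread over the window and Atp5c1 holds 1 near the start. The printed bases hold 2 of the 3 matches of Ndufb4 and 1 of the 2 of Cox6a1.
Sdha: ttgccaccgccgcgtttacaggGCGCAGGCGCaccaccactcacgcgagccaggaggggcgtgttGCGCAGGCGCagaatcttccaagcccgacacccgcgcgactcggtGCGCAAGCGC
Ndufb4: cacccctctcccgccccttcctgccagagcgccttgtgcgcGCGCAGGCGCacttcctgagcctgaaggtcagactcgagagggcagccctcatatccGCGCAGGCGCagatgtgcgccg
Cox6a1: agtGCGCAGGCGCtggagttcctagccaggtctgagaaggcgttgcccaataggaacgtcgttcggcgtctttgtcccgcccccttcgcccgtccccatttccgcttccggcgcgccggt
Atp5c1: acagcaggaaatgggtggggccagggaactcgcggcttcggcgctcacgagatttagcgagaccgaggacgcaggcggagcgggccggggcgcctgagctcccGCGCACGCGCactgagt
A match is a description of the letters, and binding was not measured.

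The isoform genes differed in CpG content at the same place, and 2 pairs are shown with each CG in capitals. They were chosen because the first gene of each had far more counts than the second. In replicates 1 to 4 the second genes had 1, 23, 40 and 0 counts (Cox7a1) and 30, 11, 9 and 1 counts (Cox8b). The counts are over the 300-base promoter, and the positions given are those of the 120 bases printed. Cox7a2 (chr9:79759854.0-79759973.0, minus strand) has 20 CpGs in its promoter and Cox7a1 (chr7:30184051.0-30184170.0, plus strand), the heart and muscle form, has 7. Of these, 10 and 4 lie in the printed bases. Cox8a (chr19:7217617.0-7217736.0, minus strand) has 19 and Cox8b (chr7:140900447.0-140900566.0, minus strand), also a heart and muscle form, has 2, with 9 and 1 in the printed bases. Cox6b1 (17 CpGs) with Cox6b2 (10 CpGs), and Cycs (32 CpGs) with Cyct (8 CpGs), had the same order. The order was the other way round for Cox7b (5 CpGs) and Cox7b2 (10 CpGs). Atp5g2, with few counts, had 20 CpGs, against 16 for Atp5g1 and 21 for Atp5g3. Over the matched members the median was 19 CpGs, against 21 in promoters of genes that had 10 or more counts in all 4 libraries and 7 in all promoters.
Cox7a2: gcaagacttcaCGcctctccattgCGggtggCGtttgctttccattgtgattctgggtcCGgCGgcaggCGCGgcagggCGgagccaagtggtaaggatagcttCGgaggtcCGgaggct
Cox7a1: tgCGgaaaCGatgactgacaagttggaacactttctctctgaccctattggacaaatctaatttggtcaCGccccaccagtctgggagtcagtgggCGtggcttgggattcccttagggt
Cox8a: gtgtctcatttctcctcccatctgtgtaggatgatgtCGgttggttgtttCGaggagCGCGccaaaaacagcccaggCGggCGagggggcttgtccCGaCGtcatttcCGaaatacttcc
Cox8b: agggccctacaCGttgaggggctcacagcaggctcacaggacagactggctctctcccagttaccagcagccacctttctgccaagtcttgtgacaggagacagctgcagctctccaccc
In the GENCODE annotation of the same build, 19 of the 88 members (21.6%) had a protein-coding neighbour on the other strand whose start lay within 1000 bases, against 9.83% of the protein-coding genes that had 10 or more counts in all 4 libraries. The closest were Ndufa7 with Rps28 (10 bases between the starts), Ndufb9 with Tatdn1 (18 bases), Sdha with Ccdc127 (29 bases) and Ndufa8 with Morn5 (52 bases).

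The libraries held between 9621762 and 10988373 counts in named genes. Counts are given per 1000000 counts (CPM) where 1 gene is followed across libraries. Where genes are set beside each other, a length-scaled level is given: counts per kilobase of the union of a gene's annotated exons, scaled to a sum of 1000000 over all genes with a length. Slc17a6 read 2237, 2011, 2014 and 2309 CPM in replicates 1 to 4. The summed level of 8 markers of glutamatergic nuclear neurons ranged from 3557 to 5862 CPM. Markers of other cells were present and uneven: 6 Purkinje cell markers summed to 1158 to 3279 CPM, 6 granule cell markers to 567 to 1345 CPM, 4 inhibitory neuron markers to 72.3 to 369 CPM, 7 astrocyte markers to 318 to 741 CPM and 6 oligodendrocyte markers to 471 to 1150 CPM. Replicate 3 was highest for all 5 of these lists. In bulk RNA, fewer cells of a type and less RNA per cell cannot be told apart.

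Together the members took 1.45%, 1.03%, 1.10% and 0.912% of all counts in replicates 1 to 4 (1.12% ± 0.229, SD, n = 4). At least 1 CPM was reached in every library by 78 of 88 members, and 3 (Cox7b2, Cox8c and Cyct) had no count in any library. Their median length-scaled level was 313, 250.8, 237.2 and 133.6 in replicates 1 to 4. The median over 10984 genes that had 10 or more counts in all 4 libraries was 30.5 ± 1.87 (SD, n = 4). Median levels were 223 ± 72.7 for complex I, 283 ± 91.3 for complex II, 254 ± 47.8 for complex III, 338 ± 164 for complex IV and 355 ± 54.4 for ATP synthase. Over the 12 members at 1 CPM or more in every library, complex IV had a median of 693 ± 224. Per principal transcript, in place of the union of exons, ATP synthase had one of 543.5 ± 117. The ranges over the 4 libraries overlapped for every pair of complexes, although ATP synthase lay above complex I within each library. Per principal transcript those 2 were apart, with medians of 406 to 689 for ATP synthase and 110 to 277 for complex I. Genes for the proteins of the cytosolic ribosome had a median of 164 ± 66.1 and those of the mitochondrial ribosome one of 48.7 ± 11.8.

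**Figure D1:**
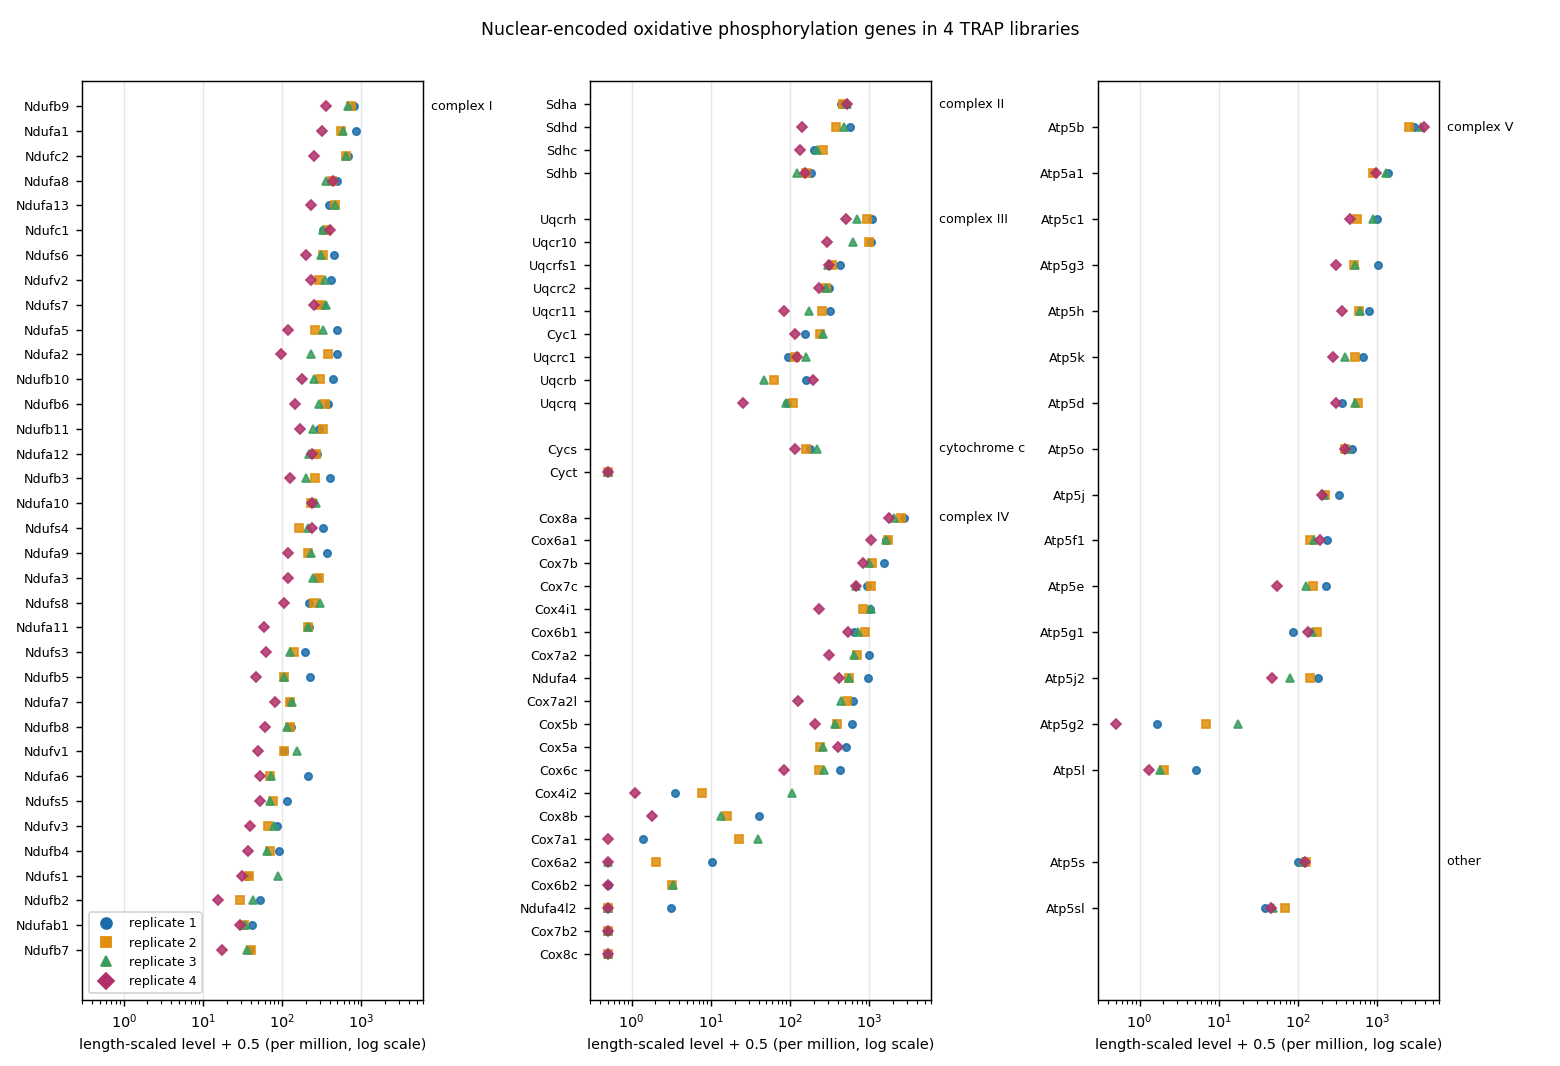
Length-scaled level plus 0.5 (log scale) of the members shown in the 4 libraries, grouped by complex and ordered by mean level; each symbol is 1 library. Most members lie within a range around 100 to 1000, Atp5b and Cox8a stand to the right, and a set of complex IV isoforms with Atp5g2 and Atp5l stands far to the left.

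Within complex I, the highest levels on the exon union belonged to 3 accessory subunits. Per principal transcript Ndufb9 was still first (603 ± 183, SD, n = 4), followed by the core subunit Ndufs7 (447 ± 59.0), Ndufc2 (390.5 ± 143) and Ndufa1 (367 ± 138). Ndufb9 (mm10 chr15:58933756-58939488, plus strand) read 797.5, 738.9, 681.2 and 358.4 in replicates 1 to 4, and Ndufa1, an X-linked subunit of the membrane arm, read 844.5, 550.6, 588.4 and 313.8. Ndufc2 read 684.7, 645.2, 633.8 and 250. Replicate 4 was the lowest library for all of these. The lowest 2 levels were those of Ndufab1, the mitochondrial acyl carrier protein, at 33.9 ± 5.31 (SD, n = 4), and Ndufb7 at 32.8 ± 10.7. The value of Ndufb7 depends on the length used, since its union of exons spans 4522 bases and its principal transcript 623 bases, and per principal transcript its level was 152 ± 49.7. The 7 core subunits, which carry the flavin and iron-sulfur clusters of the peripheral arm, had a median level of 217 ± 82.6 and the 29 accessory subunits one of 226 ± 75.5. The levels of 6 of the core subunits, from high to low, were Ndufv2 (321 ± 79.6), Ndufs7 (309 ± 42.1), Ndufs8 (217 ± 82.6), Ndufs3 (130 ± 54.9), Ndufv1 (103 ± 42.7) and Ndufs1 (48.3 ± 27.4). Ndufv1, which binds NADH and the flavin, thus read lower than its partner Ndufv2 in all 4 libraries, with no overlap between their ranges (48.5 to 153 against 228 to 414).

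Complex II, which also works as succinate dehydrogenase in the citric acid cycle, was led by its catalytic flavoprotein. Sdha (mm10 chr13:74322254-74350280, minus strand) read 434.5, 461.1, 520 and 525.8 on the length-scaled level and was among the steadiest members. Sdhb, the iron-sulfur subunit that binds Sdha directly, read 182.4, 158.2, 123.5 and 155.8. The groups did not overlap. The within-library log2 ratio of Sdhb over Sdha was -1.65 ± 0.35 (SD, n = 4), a level 0.318 times that of Sdha (limma on within-library differences, adjusted p = 0.000131 over all genes in the fit). Beside it, 95.7% of the other genes were also called lower than Sdha. In CPM the log2 ratio of Sdhb over Sdha was -2.53. Per principal transcript the gap was smaller, with levels of 194 ± 30.5 for Sdhb and 442 ± 41.0 for Sdha. The membrane anchors differed in steadiness: Sdhd read 566.6, 376.9, 478.9 and 140.1, and Sdhc read 202.4, 260.9, 217.1 and 134.6. Both were lowest in replicate 4, where Sdha was at its highest.

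In complex III the hinge protein gene Uqcrh led with 1079, 946.1, 692.5 and 507.5, followed by the small subunit Uqcr10 with 1050, 979.7, 625.1 and 293, and by the Rieske iron-sulfur protein Uqcrfs1 at 341 ± 55.6 (SD, n = 4). The lowest were Uqcrb at 115 ± 72.4 and Uqcrq at 77.4 ± 36.3. Uqcrb was high in replicates 1 and 4 (156.7 and 194.8) and low in replicates 2 and 3 (61.5 and 46.1), a pattern unlike that of the other complex III members. Of the 50-base words in its principal transcript, 43.4% also occur in other annotated genes, and the 3 that share the most are processed pseudogenes. For the 2 large core proteins, Uqcrc2 exceeded Uqcrc1 with a log2 ratio of 1.197 ± 0.405 (SD, n = 4; limma, adjusted p = 0.00186; 9.08% of genes were called higher than Uqcrc1). That difference rests on the exon union: per principal transcript the log2 ratio was 0.31 (limma, adjusted p = 0.295) and in CPM it was 0.50 (limma, adjusted p = 0.107). Cycs, the somatic cytochrome c, read 176.9, 158, 217.7 and 116.

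Complex IV held both some of the highest and the lowest levels of all members. Cox8a (mm10 chr19:7215153-7217616, minus strand), the ubiquitous form of a small membrane subunit, read 2729, 2501, 2057 and 1787, and all 4 values lay above the highest value of the next member. That was Cox6a1 with 1642, 1726, 1612 and 1037. Cox7b, an X-linked subunit, came next with 1535, 1091, 990.3 and 833.6. Cox8a ranked 34th among the 23891 names with a length by length-scaled level and 582nd among all 32531 names by CPM; its principal transcript has 550 bases. Cox6c, at 250 ± 138 on the exon union (SD, n = 4), had a level of 1134 per principal transcript, so its place in the order depends on the length.

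In ATP synthase the 3 highest levels on the exon union belonged to subunits of F1, the catalytic head. Per principal transcript Atp5b was still first (4533 ± 883, SD, n = 4), but the c-subunit gene Atp5g3 (1152 ± 591) came before Atp5a1 (916.5 ± 192) and Atp5h (876 ± 256.5) before Atp5c1 (754 ± 261.5). Atp5b (mm10 chr10:128083273-128090391, plus strand), the catalytic β-subunit, read 2911, 2495, 3518 and 3895 on the length-scaled level and was highest in replicate 4. Among the 23891 names with a length it ranked 14th by this level. In counts it stood alone among the members, with 18.3%, 19.4%, 24.7% and 34.9% of all member counts in replicates 1 to 4. The α-subunit gene Atp5a1 read 1378, 882.9, 1293 and 967.2 and the central stalk gene Atp5c1 read 994.4, 561, 871.2 and 456.8. The F1 head holds α and β in equal number, and the log2 ratio of Atp5b over Atp5a1 was 1.08, 1.498, 1.44 and 2.01 in replicates 1 to 4 (mean 1.51 ± 0.38, SD, n = 4; a 2.84-fold difference; limma, adjusted p = 7.063e-06). Of the other genes in the fit, 0.419% were called higher than Atp5a1. Atp5b over Atp5c1 gave 2.20 ± 0.65, a 4.599-fold difference (limma, adjusted p = 1.578e-08), where 0.71% of genes were called higher than Atp5c1. Per principal transcript these 2 ratios were 2.31 and 2.64, and in CPM 1.94 and 3.35. The other 2 subunits of the head, Atp5d and Atp5e, had levels of 442 ± 130 and 139 ± 69.7.

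The c-ring of ATP synthase is encoded by 3 genes whose mature products are the same protein. Atp5g3 read 1021, 507.7, 528.9 and 303.2, Atp5g1 read 86.5, 171.3, 151 and 132.7, and Atp5g2 read 1.15, 6.43, 16.9 and 0. On this level the ranges of the 3 genes did not overlap. In CPM those of Atp5g3 (127.7 to 478.7) and Atp5g1 (91.4 to 159.2) did. Atp5g3 exceeded Atp5g1 by a log2 ratio of 2.03 ± 1.05 (SD, n = 4), which was 3.55 in replicate 1 and between 1.19 and 1.81 in the others (limma, adjusted p = 2.849e-07; 7.5% of genes were called higher than Atp5g1). The size of that ratio depends on the length, at 3.58 per principal transcript and 0.86 in CPM. For Atp5g2, 87.4% of the 50-base words of its principal transcript also occur in other annotated genes, pseudogenes among them, and reads placed at more than 1 site were not assigned to a gene, so its low count may understate it. Atp5l, with a level of 2.07 ± 1.75, was alike in this, with 84.9% of its words shared. Shared words made up 53.0% in Cox7c, 50.5% in Atp5h and 50.3% in Atp5o, whose levels were nonetheless 838 ± 191, 585 ± 173 and 418 ± 39.4. For Atp5o the sharing entries include a second annotation of the same name. In all, 48 of the 88 members shared some word with another annotated gene and 40 shared none.

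**Figure D2:**
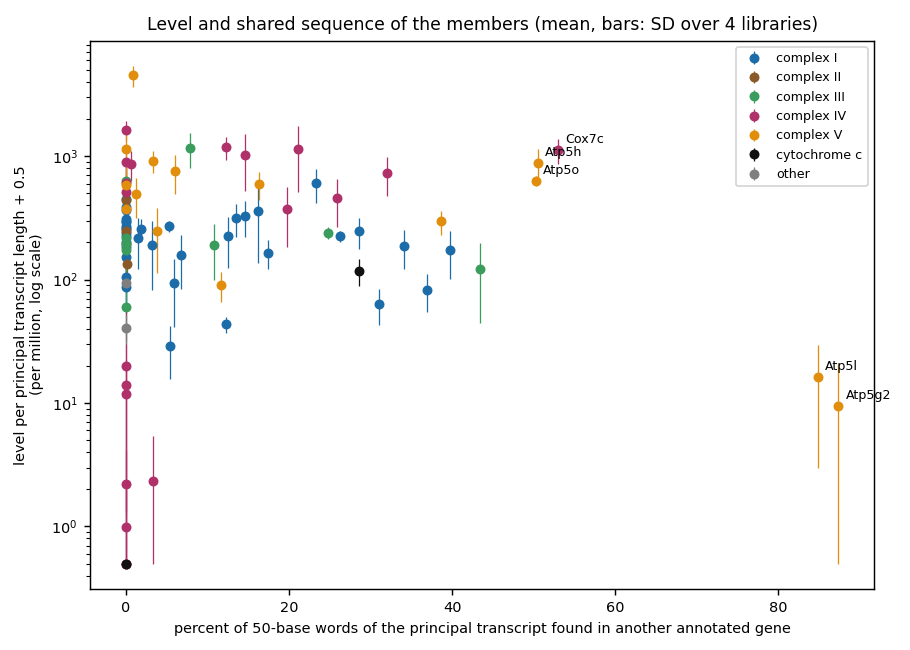
Level per principal transcript length plus 0.5 (mean of 4 libraries, bars SD, log scale) against the percent of 50-base words of that transcript found in another annotated gene; colours mark the complexes. Atp5g2 and Atp5l, at 87.4% and 84.9%, lie below most members, while Cox7c, Atp5h and Atp5o, at 50.3% to 53.0%, lie among the higher members.

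Among isoform genes of complex IV and cytochrome c, the forms known from most tissues were the ones found. Cox4i1 (mm10 chr8:120668222-120674207, plus strand) read 3317, 2551, 3129 and 753 counts in replicates 1 to 4, and Cox4i2, the form known from lung, read 5, 11, 156 and 1 counts. Replicate 3 stood apart: the ratio of the length-scaled levels there was 10.2-fold, the smallest of the 4. Cox6a1 read 2384, 2364, 2158 and 1545 counts against 14, 2, 0 and 0 for Cox6a2, the heart and muscle form. Cox7a2 read 1943, 1270, 1163 and 628 counts against 1, 23, 40 and 0 for Cox7a1, with a smallest ratio of levels of 16.5-fold, in replicate 3. Cox8a read 3495, 3020, 2428 and 2347 counts against 30, 11, 9 and 1 for Cox8b, with a smallest ratio of levels of 67.8-fold, in replicate 1. Cox6b2, a testis form, had 0, 6, 6 and 0 counts against 931, 1224, 967 and 817 for Cox6b1. Ndufa4, once assigned to complex I, read 2720, 1513, 1469 and 1202 counts, and its relative Ndufa4l2 read 6, 0, 0 and 0.

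The 3 genes without a count give lower bounds. With a floor of 3 counts in each library (0.273 to 0.312 CPM), which covers counting error only, the level of Cox7b was at least 319.5-fold higher than that of Cox7b2 in every library. That of Cox8a was at least 578.9-fold higher than that of Cox8c. That of Cycs was at least 53.75-fold higher than that of Cyct, the testis cytochrome c. Beside the low isoforms, 5 endothelial markers summed to 35.1, 11.6, 35.2 and 26.1 CPM, with Cldn5 at 0 in replicate 3, and 4 pericyte genes, listed after the data were seen, summed to 23.1, 4.56, 21.0 and 13.6 CPM. Cox4i2 read 0.520, 1.07, 14.95 and 0.0910 CPM. In these lists Flt1, Cdh5 and Vtn were also highest in replicate 3, and the other genes of both lists were not. The source of the Cox4i2 reads was not tested.

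Of 18 pairs of isoforms or subunits, 16 passed the threshold of 0.05 in limma's test on within-library differences, with p-values adjusted over all genes in each fit. Of all genes, 100% were called higher than Cox7b2, Cox8c and Cyct, 99.5% higher than Ndufa4l2, 95.8% higher than Cox6b2, 88.3% higher than Cox6a2 and 67.3% higher than Atp5g2, so passing says little for these pairs. The shares were 21.6% for Cox4i2, 27.3% for Cox7a1 and 32.2% for Cox8b. The noise of the second gene enters every difference in such a fit, so its p-values are not independent between genes. With the variances of both genes estimated separately and summed, the same 16 pairs passed, some with a larger and some with a smaller adjusted p. The exact sign-flip test over 4 libraries cannot go below p = 0.13 and called 0. Without replicate 1 the calls for Cox4i1 over Cox4i2 (limma, adjusted p = 0.0941) and Cox7a2 over Cox7a1 (limma, adjusted p = 0.0895) were lost, and without replicate 2 that for Cox4i1 over Cox4i2 (limma, adjusted p = 0.0718). Cox7a2 and Cox7a2l, a relative that joins complexes III and IV, differed by a log2 ratio of 0.75 ± 0.41 (SD, n = 4; limma, adjusted p = 0.207; 1.05% of genes called higher than Cox7a2l). Cox5a and Cox5b, 2 subunits facing the matrix, gave -0.12 ± 0.75 (limma, adjusted p = 0.780; 91.7% called lower than Cox5b). Cox5a was the lower in replicates 1 to 3 and the higher in replicate 4.

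**Figure D3:**
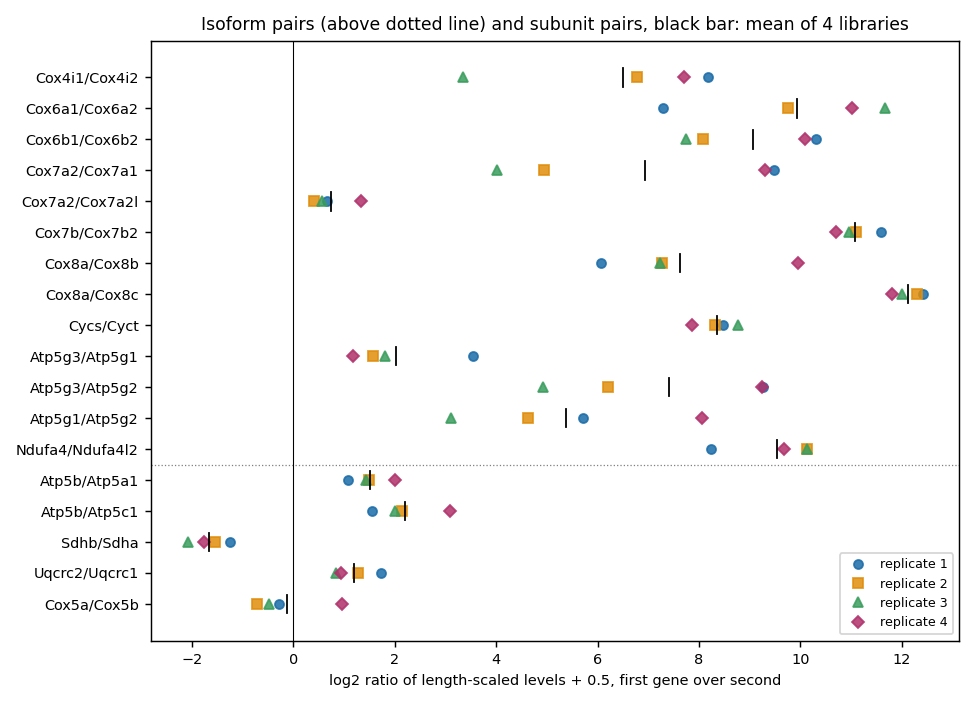
Log2 ratio of length-scaled levels (plus 0.5) of the first over the second gene for 18 pairs in each library, with the mean as a black bar; isoform pairs are above the dotted line and subunit pairs below it. Ratios for Cox4i1 over Cox4i2 spread from 3.34 to 8.18, and Sdhb over Sdha is negative in all 4 libraries.

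Because the labels give 1 group, the only comparison between libraries sets each against the other 3. None of the 83 members tested was called in any of the 4 comparisons (edgeR's quasi-likelihood test with Benjamini-Hochberg adjustment). Of all 15083 genes, 0.0464% were called in replicate 4, 0.0199% in replicate 1, and 0% in each of replicates 2 and 3. At an unadjusted p under 0.05 the members numbered 28 in replicate 4, 7 in replicate 1, 0 in replicate 2 and 3 in replicate 3, and of all genes 14.7%, 3.3%, 0.517% and 7.01% were under it. All 28 members were lower in replicate 4, making 33.7% of the 83 tested, against 7.56% of all genes lower at that p. Of the 2222 genes under that p in replicate 4, 1140 were lower. DESeq2 called 8 members in replicate 4, all lower (Cox4i1, Cox6c, Cox7a2l, Ndufa11, Sdhd, Uqcr10 and Uqcrq among them), where 2.05% of all genes were called lower, and 0 in the other comparisons.

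Members nevertheless stood low in replicate 4 and high in replicate 1. Their median log2 fold change in replicate 4 was -0.77, against -0.16 for all genes, with 68 of 83 below 0. In replicate 1 it was 0.48, against -0.10, with 67 of 83 above 0. In replicates 2 and 3 the medians were 0.01 and -0.06. Replicate 4 was the lowest of the 4 libraries, after TMM scaling, for 62 of 83 members (74.7%), and it was lowest for 31.5% of all genes. Replicate 1 was the highest for 55 members (66.3%), and for 25% of all genes. All 7 core subunits of complex I had their lowest value in replicate 4, as did 24 of the 29 accessory subunits tested, 13 of 16 in complex IV, 9 of 15 in ATP synthase, 6 of 9 in complex III and 2 of 4 in complex II. Median log2 fold changes in replicate 4 were -1.15 for the core and -0.91 for the accessory subunits of complex I, -0.23 for complex II, -0.70 for complex III, -1.10 for complex IV and -0.69 for ATP synthase. Cytosolic ribosomal protein genes had a median of -0.86 and mitochondrial ones one of -0.41.

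Log2 fold changes in replicate 4 ran from -1.805 to 0.36 in complex I, -1.62 to 0.30 in complex II and -1.801 to 1.27 in complex III. They ran from -7.43 to 0.39 in complex IV and -7.73 to 0.53 in ATP synthase. The low ends of the last 2 were Cox7a1 and Atp5g2, which had no count in that library. Cox4i1 read 344.7, 247.5, 299.8 and 68.5 CPM, with replicate 4 far below the others (log2 fold change -1.96, SE 0.35; edgeR, adjusted p = 0.0875). The call depended on the other libraries: without replicate 1, 2 or 3 in turn, edgeR's adjusted p was 0.0116, 0.0361 and 0.0440. Cox7a2l read 199.7, 144.2, 117 and 35.3 CPM (log2 fold change -1.95, SE 0.41; edgeR, adjusted p = 0.13), and its adjusted p was 0.0358 in edgeR without replicate 1 and 0.0415 without replicate 3. Sdhd had a log2 fold change of -1.62 (SE 0.41; edgeR, adjusted p = 0.169). Exons of Emc8 on the other strand overlap those of Cox4i1 by 154 bases, and 27 of the 88 members had an overlap of this kind. The strand setting of the counting is not given, and any part of such reads in the counts was not tested.

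Against this, 15 of the 83 members read above 0 in replicate 4. Atp5b read 2652, 2000, 2723 and 3187 CPM (log2 fold change 0.53, SE 0.26; edgeR, adjusted p = 0.364) and Sdha read 385.5, 360.1, 391.9 and 418.9 CPM (0.30, SE 0.28; edgeR, adjusted p = 0.619). Uqcrb had the largest positive value, 1.27 (SE 0.66; edgeR, adjusted p = 0.3997). Without Atp5b the members' share of all counts was 1.18%, 0.833%, 0.828% and 0.594% in replicates 1 to 4, so the gap between replicates 1 and 4 was wider than with it. Rn45s, a ribosomal RNA precursor, took 4.99%, 14.2%, 13.6% and 4.92% of counts. With Rn45s left out of the totals the members' shares were 1.52%, 1.20%, 1.27% and 0.959%.

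**Figure D4:**
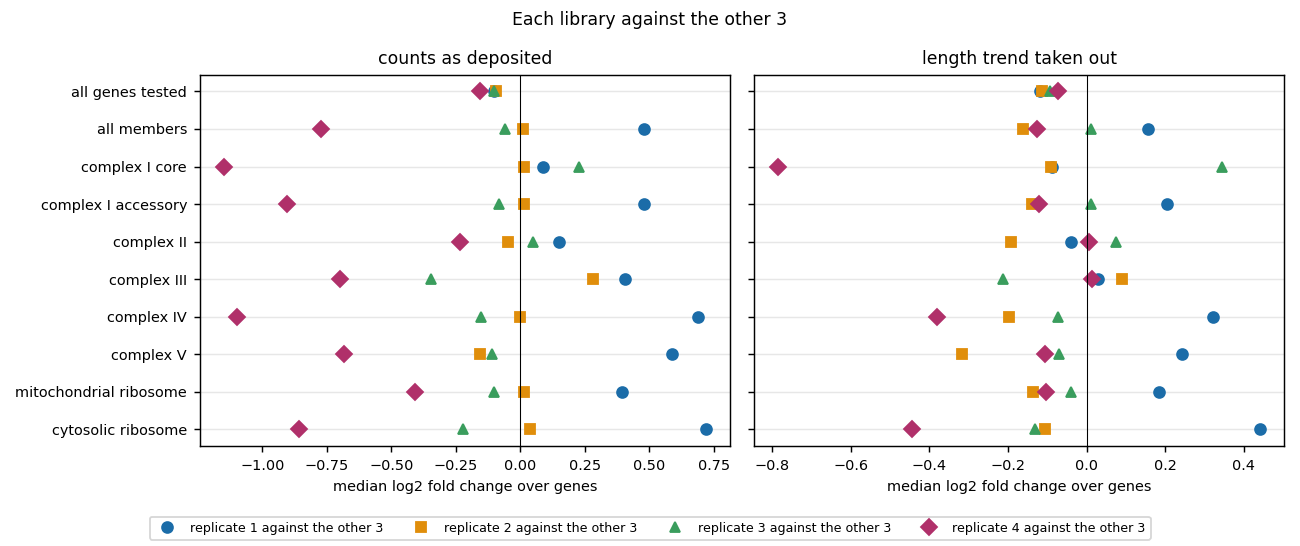
Median log2 fold change of each library against the other 3 (horizontal axis) for all genes tested, all members, the complexes and 2 ribosomal protein lists, with counts as deposited on the left and with a fitted trend on gene length taken out on the right; each symbol is 1 library. On the left the members sit at -0.77 in replicate 4 and 0.48 in replicate 1; on the right they sit at -0.13 and 0.16, while the complex I core stays at -0.78 in replicate 4.

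Transcript length moved with this difference. The median principal transcript was 823.5 bases for members and 3272 bases for genes that had 10 or more counts in all 4 libraries, and 61.4% of members but 4.88% of those genes were under 1000 bases. Among all tested genes under 1000 bases (867), the median log2 fold change in replicate 4 was -0.90 and 75.6% were below 0. The 49 members of that class had a median of -1.03, with 91.8% below 0. Above that length the medians were -0.11 for all genes and -0.44 for 34 members. With a trend on exon length taken out of each library, the members' median in replicate 4 was -0.13, with 33 of 83 above 0, against -0.07 for all genes, and in replicate 1 it was 0.16. The medians of complexes II and III then stood at 0.01 each, that of complex IV at -0.38, and that of the accessory subunits of complex I at -0.12. The core subunits of complex I kept a median of -0.78, on 7 genes. Marker levels differed too: replicate 4 had the highest sum of glutamatergic markers (5862 CPM), of which Nefm gave 2502 CPM against 897 to 1065 in the others while Lhx2 was at its lowest there (18.75 CPM), and the lowest of inhibitory and Purkinje cell markers (72.3 and 1158 CPM), with Slc6a5 at 0. The part of length and of cell makeup in the members' values was not tested further.

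**Figure D5:**
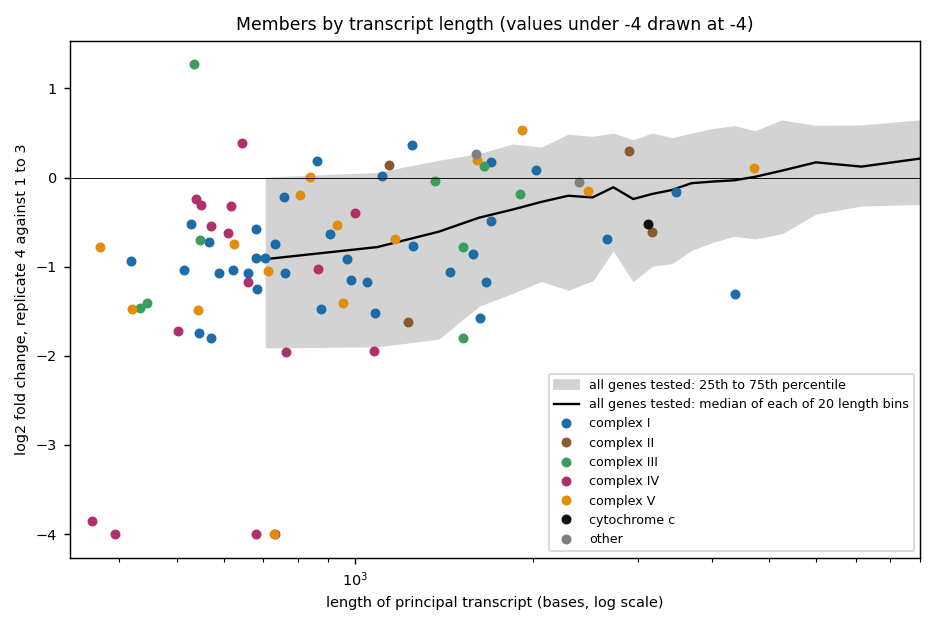
Log2 fold change of replicate 4 against replicates 1 to 3 for each member by length of its principal transcript (log scale), with the median (line) and the 25th to 75th percentile (band) of all tested genes in 20 bins of length. Values below -4 are drawn at -4. The median of all genes runs from -0.91 in the shortest bin to 0.25 in the longest, and members gather at the short end, mostly below 0.

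The 3 lowest p-values in replicate 1 were those of genes that read high there. Ndufa6 had a log2 fold change of 1.72 (SE 0.49), Ndufb5 of 1.40 (SE 0.45) and Atp5g3 of 1.197 (SE 0.38), and each had an adjusted p of 0.9996 in edgeR. In replicate 3 the lowest p-values were those of Cox4i2 at 4.77 (SE 1.22; edgeR, adjusted p = 0.4004) and Ndufs1, the largest core subunit of complex I, at 1.28 (SE 0.41; edgeR, adjusted p = 0.485).

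The biological coefficient of variation estimated by edgeR over the 4 libraries had a median of 0.326 for the 78 members with at least 10 counts in each. For all 11302 such genes it was 0.389, and 10 of the 78 lay above that median. Each estimate is drawn towards a trend on abundance, and the members were not matched to other genes by abundance. ATP synthase had a median of 0.294, complex II 0.291, complex IV 0.311, complex III 0.315 and complex I 0.344, beside 0.354 for cytosolic and 0.413 for mitochondrial ribosomal protein genes. Among members with at least 10 CPM throughout, the smallest SDs of log2 CPM were those of Atp5s (0.09), Sdha (0.09) and Ndufa10 (0.10). The largest were those of Cox7a2l (1.08), Cox4i1 (1.07), Ndufa2 (1.06), Cox6c (1.019) and Ndufb5 (0.99). For these 5 genes replicate 4 was the lowest library.

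Further genes tied to the complexes, most of which build or control them, were read beside them. The list named for ATP synthase assembly and inhibition held Atpaf1, Atpaf2, Tmem70, Atpif1, Usmg5 and 2010107E04Rik. Not all of these are assembly factors or inhibitors. None of the 14 complex I, 4 complex II, 6 complex III or 19 complex IV assembly factors tested was called in any library comparison (edgeR), nor was any of 6 genes of ATP synthase assembly and inhibition or 15 regulators of mitochondrial gene expression. Of these 64 genes, 11, 5, 0 and 1 had an unadjusted p under 0.05 in replicates 4, 1, 2 and 3. These were 17.2%, 7.81%, 0% and 1.56%, beside 14.7%, 3.3%, 0.517% and 7.01% of all genes. DESeq2 called 1, in replicate 4 (Cox17, lower), where it called 2.05% of all genes lower. The assembly lists had median log2 fold changes in replicate 4 of -0.31, -0.32, -0.48 and -0.43, and the ATP synthase list one of -0.70. The regulators had a median of -0.04. Among assembly factors the highest length-scaled levels were those of Ndufaf5 (151 ± 84.5, SD, n = 4) for complex I, Sdhaf4 (110 ± 5.29) for complex II, Uqcc2 (110 ± 77.0) for complex III and Cox14 (208 ± 60.9) for complex IV. The lowest were Nubpl (6.37 ± 2.69), Sdhaf3 (14.1 ± 3.85), Bcs1l (21.8 ± 7.37) and Sco2, which had no count in any library. Atpif1, the inhibitor of ATP hydrolysis by the synthase, had a level of 578 ± 182, and Atpaf2, an assembly factor for F1, one of 37.8 ± 15.4. Ppargc1a, a coactivator of mitochondrial biogenesis, was the highest of the regulators at 413 ± 111, and read 495.6, 397.8, 501.1 and 723 CPM in replicates 1 to 4, highest in the library where most members were lowest. Nrf1, which encodes nuclear respiratory factor 1, was the lowest of them at 6.57 ± 0.834.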

How the data were processed

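Counts per gene for 4 libraries were made by the authors with STAR 2.0.0e and HTSeq on mm10, per the submitters' processing notes; the sources used here name neither the annotation nor the strand setting. Deposited counts were used unchanged. Summary rows were left out. Of gene counts and summary rows together, no feature made up 14.1% to 21.1%, not unique 14.2% to 20.6% and ambiguous 2.04% to 2.94%. Libraries held 9621762 to 10988373 counts. edgeR 4.0.16 in R 4.3.3 (TMM, filterByExpr, quasi-likelihood test) compared each library with the rest, and p-values were adjusted over all genes. Pairs were tested with limma 3.58.1 on log2(level + 0.5). DESeq2 1.42.0 was an alternative. Lengths came from GENCODE M21, matched by symbol for 88 members. The scripts were tested on simulated data. Named genes were the highest 3 and lowest 2 of each complex, both genes of each pair, the core, complex II and F1 subunits, the widest 5 and steadiest 3 members, and the extremes of each list, with further genes named after their values were seen. Alternatives changed scaling, the filter, length, pseudocount and libraries. The members and lists were chosen with earlier results of these data known. 1 member is not reported by name here.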

Additional observations from a re-analysis of the deposited data

Results flagged for a closer look

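In 10 of 85 sets of 4 values (11.8%), 1 library lay far from the other 3 by Dixon's criterion. Chance gives about 1 in 20, and over all genes that had 10 or more counts in all 4 libraries the share was 7.45%. Replicate 1 was the high library for 5 members: Atp5j at 222.8 CPM (others 120.2 to 129.5), Atp5o at 201.3 CPM (146.9 to 148.4), Ndufa6 at 83.1 CPM (18.0 to 24.2), Ndufab1 at 61.2 CPM (38.4 to 41.8) and Atp5l at 6.44 CPM (1.001 to 1.84). Replicate 3 was high for Ndufs1 at 131.6 CPM (47.5 to 61.5) and for Cox4i2 at 14.95 CPM (0.0910 to 1.07). Replicate 2 was high for Atp5sl at 38.8 CPM (24.6 to 26.4). Replicate 4 was low for Ndufa13 at 55.97 CPM (103.7 to 108.8) and for the median length-scaled level of complex II at 148 (318.5 to 348). That median is over 4 genes that did not move together. In replicate 4 Sdhd and Sdhc read their lowest (140.1 and 134.6), Sdha its highest (525.8), and Sdhb lay within its range (155.8).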

How the results depend on the processing

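No paired comparison of groups was possible because the series has 1 group. Of the library comparisons, the 0 members called in replicate 4 became 8 with DESeq2 (427 of 13264 genes in all), 7 without the filter on low counts (416 of 18704) and 1 to 2 when 1 of the other replicates was left out (74 to 125 genes in all), all lower; in replicate 3, 1 was called without the filter (86 of 18704). The cause was not tested. With RLE scaling, without Rn45s and with the length trend taken out the count stayed 0 in all 4 comparisons. Leaving out replicates gave 0 throughout in the other comparisons, and 14 to 16 pairs past the threshold. The 16 pairs became 0 with the exact sign-flip test, by its smallest p, and 15 in CPM or per principal transcript. The median level of complex IV was 67.0 as a mean of log2 levels and 693 over members with at least 1 CPM in every library, since its low isoforms weigh on it. That of complex V was 465 per longest transcript, 543.5 per principal transcript, 203 as a mean of log2 levels and 443 without members that share at least 20% of their 50-base words. Principal transcripts, shared words and summed variances were chosen after seeing the data. Values near 0 changed sign: Atp5o in replicate 4 ranged from -0.047 (without replicate 2) to 0.10 (without replicate 1) when 1 replicate was left out, with -0.04 without replicate 3, and Cox5a over Cox5b from -0.49 (without replicate 4) to 0.073 (without replicate 2), with 0.28 in CPM and 0.70 per principal transcript. Depth limits the members under 10 counts, whose isoform ratios rest on few reads.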
